A study of Mus musculus with 6 samples.

Results

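The PPAR, ERR and PGC-1 regulators are the nuclear receptors and cofactors that set the transcription of fuel metabolism genes in the heart. The group was defined by name as Ppara, Ppard, Pparg, Rxra, Rxrb, Esrra, Esrrg, Ppargc1a, Ppargc1b and Nrip1. All 10 were found among the 49315 genes of the deposited count table, and all 10 passed the filter on low counts that left 14370 genes for testing. RNA came from mid-ventricular heart tissue of adult mice, with 3 libraries labelled wild type (WT) and 3 labelled TET2KO, a knockout of Tet2 specific to endothelial cells. Every animal of both groups had received Angiotensin II, a vasoconstrictor peptide that raises blood pressure, at 1 mg/kg/day for 28 days from subcutaneous osmotic minipumps, so there was no untreated group. The Cre driver, deleted exons, strain and sex of the mice were not given in the sources used here. Only the endothelial cells of the knockout were to lose Tet2, and the tissue is a mixture of cell types. Samples within a group are biological replicates according to the series' design text.

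PPAR proteins are receptors for fatty acids and their derivatives that bind DNA as partners of RXR proteins and switch on fatty acid uptake and oxidation genes. ERR proteins are related receptors with no known natural ligand that act on genes of the tricarboxylic acid cycle and the respiratory chain. PGC-1 proteins do not bind DNA themselves but dock on PPAR and ERR receptors and raise their activity, while the corepressor RIP140, encoded by Nrip1, docks on the same receptors and lowers it.

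Library totals in the count table ran from 22124844 to 30418909 reads. Levels are given as CPM, reads scaled to a common library total with TMM factors, or, to compare genes with each other, as the authors' deposited TPM, which is scaled for gene length. Fold changes are log2 values of TET2KO over WT ± SE from edgeR's quasi-likelihood test, and a gene passed when its p-value, adjusted over all genes tested, was at most 0.05. Tet2 itself stood at 4.27, 4.33 and 3.08 CPM in the libraries labelled WT and at 14.6, 8.01 and 10.4 CPM in those labelled TET2KO, which goes against the label (1.49 ± 0.29, adjusted p = 0.0065, and 0.27 ± 0.17 without a call in the trend-removed fit explained next). All directions below are those of the labels. Across all genes 62.9% passed, 33.4% higher and 29.4% lower, and the fold change rose with transcript length (Spearman's rho = 0.61 across 14341 genes, which are not independent replicates). A second value, in which a smooth dependence on length and GC of the transcript was taken out of each library, is therefore given as the trend-removed value. With it 46.1% of genes passed, 21.8% higher and 24.3% lower. TET2KO replicate 2 was the TET2KO library nearest to the WT mean in 81.9% of all genes and in 9 of the 10 members, all but Pparg.

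All are protein-coding genes, placed here on GRCm38 with GENCODE M21. The PPAR genes are Ppara (ENSMUSG00000022383) at chr15:85734983-85802819 on the plus strand, Ppard (ENSMUSG00000002250) at chr17:28232700-28301474 on the plus strand and Pparg (ENSMUSG00000000440) at chr6:115360951-115490399 on the plus strand. The RXR genes are Rxra (ENSMUSG00000015846) at chr2:27676440-27762957 on the plus strand and Rxrb (ENSMUSG00000039656) at chr17:34031812-34038399 on the plus strand. The ERR genes are Esrra (ENSMUSG00000024955) at chr19:6910977-6921813 on the minus strand and Esrrg (ENSMUSG00000026610) at chr1:187608791-188214885 on the plus strand. The cofactor genes are Ppargc1a (ENSMUSG00000029167) at chr5:51454250-51567726 on the minus strand and Nrip1 (ENSMUSG00000048490) at chr16:76287400-76373827 on the minus strand. The remaining cofactor gene is Ppargc1b (ENSMUSG00000033871), whose position is not printed here.

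The start regions of the genes are shown first, for the letters of the receptor and cAMP response motifs that they hold. RefSeq windows of 300 bases (250 before to 50 after an annotated start, GRCm38.p6) were held for 9 of the 10 members. On both strands they were searched for the nuclear receptor hexamer AGGTCA, the ERR site TCAAGGTCA, the repeat of that hexamer with any base between (DR1, the element of PPAR and RXR pairs), the cAMP response element TGACGTCA and its core TGACG. Longer motifs contain the shorter ones. Of all 32851 windows of this length, 16.3% held AGGTCA, 20.8% held TGACG, 1.79% TGACGTCA, 0.423% TCAAGGTCA and 0.0396% DR1. No member window held any of the last 3. TGACG was found in windows of Ppara, Ppard, Ppargc1a and Rxrb, and AGGTCA in windows of Pparg and Rxra. The windows below are those of the main coactivator gene, the gene with the largest rise, and the receptor genes with the hexamer close to a start. Capitals mark a match on either strand.
Ppargc1a, chr5:51567676-51567975, minus strand: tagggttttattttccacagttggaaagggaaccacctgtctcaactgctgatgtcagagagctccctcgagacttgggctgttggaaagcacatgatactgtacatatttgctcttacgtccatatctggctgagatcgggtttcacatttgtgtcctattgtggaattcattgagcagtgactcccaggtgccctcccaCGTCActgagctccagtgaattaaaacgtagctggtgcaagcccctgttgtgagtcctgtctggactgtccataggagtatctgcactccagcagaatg
Ppard, chr17:28232504-28232803, plus strand: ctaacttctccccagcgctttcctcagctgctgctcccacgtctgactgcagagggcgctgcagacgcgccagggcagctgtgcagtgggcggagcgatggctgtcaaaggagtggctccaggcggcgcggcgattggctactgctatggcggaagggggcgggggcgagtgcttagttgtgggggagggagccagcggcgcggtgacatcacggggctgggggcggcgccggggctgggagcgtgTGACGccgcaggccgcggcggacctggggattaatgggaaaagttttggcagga
Pparg, chr6:115362099-115362398, plus strand: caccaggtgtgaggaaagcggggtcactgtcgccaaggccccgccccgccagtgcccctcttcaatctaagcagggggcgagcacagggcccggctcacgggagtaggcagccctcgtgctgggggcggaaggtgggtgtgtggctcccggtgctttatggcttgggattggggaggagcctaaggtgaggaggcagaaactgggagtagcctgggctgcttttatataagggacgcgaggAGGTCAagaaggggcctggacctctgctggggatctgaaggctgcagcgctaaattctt
Rxra, chr2:27709042-27709341, plus strand: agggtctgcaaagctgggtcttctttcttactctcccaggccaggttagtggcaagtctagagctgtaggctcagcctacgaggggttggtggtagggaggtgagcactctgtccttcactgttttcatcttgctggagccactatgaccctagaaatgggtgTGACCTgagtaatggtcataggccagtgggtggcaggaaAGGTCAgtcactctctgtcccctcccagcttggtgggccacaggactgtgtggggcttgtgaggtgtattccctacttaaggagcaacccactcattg
The Ppargc1a match begins 49 bases before the start and the Ppard match 4 bases before it. The Pparg hexamer begins 9 bases before this start, and a second annotated start of Pparg carries 1 hexamer 28 bases before it. The Rxra window holds 2 hexamers in opposite orientation, at 87 and 48 bases before an internal start, and the window at its first start holds none. Members that rose are found both with a match (Ppara, Ppard, Ppargc1a, Rxra) and without one (Esrrg, Nrip1), and Esrra, which fell, has none. These matches are descriptions of the letters in a window.

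Of the 10 members, 7 rose, 1 fell and 2 did not pass the test in the libraries labelled TET2KO, against 33.4% higher and 29.4% lower among all genes. Ppara, Ppard, Rxra, Esrrg, Ppargc1a, Ppargc1b and Nrip1 rose, Esrra fell, and Pparg and Rxrb did not pass. The median log2 fold change was 1.56 over the members and 0.046 over all genes tested. With the trend removed 7 were higher and 2 lower, with a median of 0.84 against -0.031 over all genes, and the members that passed were not the same. Pparg then counted as higher, Rxrb as lower, and Nrip1 no longer passed. Without TET2KO replicate 2, where 75.1% of all genes passed (39.8% higher and 35.3% lower), 8 members were higher and 1 lower. With total library size in place of TMM, which shifted the all-gene median from 0.046 to 0.47, 9 members were higher and 0 lower (61.3% of all genes passed, 45.5% higher and 15.8% lower). On log2(TPM + 1) values the count was also 9 higher and 0 lower (62.1% of all genes, 48.5% higher and 13.6% lower). In CPM the groups did not overlap for 8 members that were higher and 1 that was lower, against 73.5% of all genes (38.0% and 35.5%). With the trend removed they did not overlap for 9 members, all but Nrip1, against 59.2% (27.8% higher and 31.4% lower). In TPM they did not overlap for 9 members, all higher, against 73.3% (56.8% higher and 16.5% lower).

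**Figure D1:**
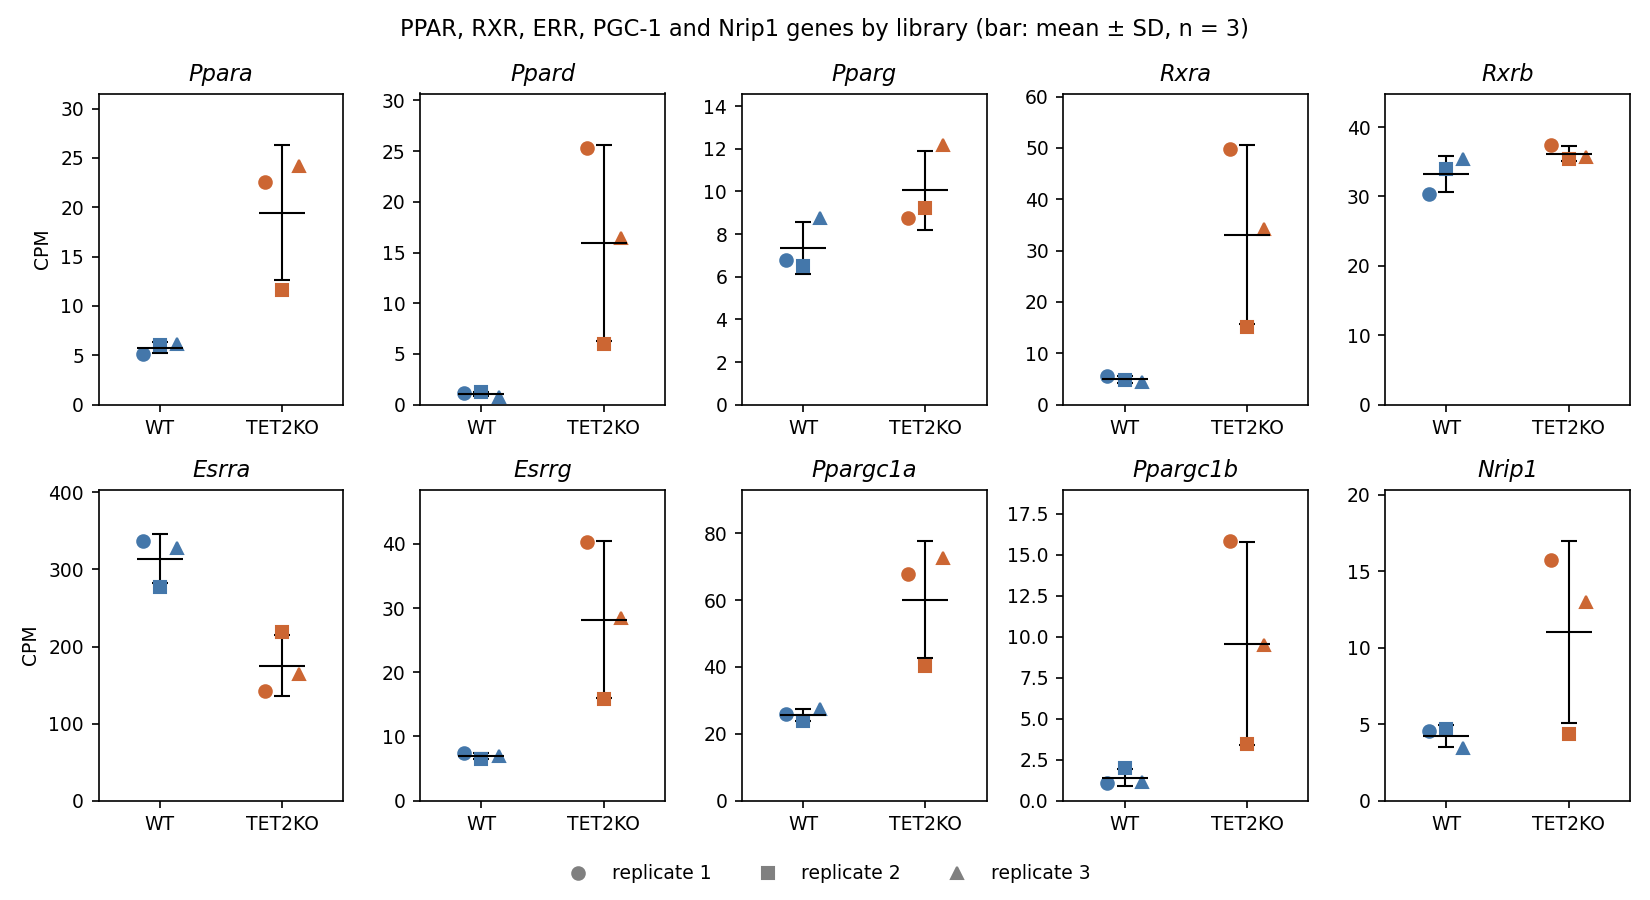
CPM of the 10 members (vertical axes, 1 panel per gene, each from 0) in the 3 WT and 3 TET2KO libraries, with the mean and SD as bars and a symbol for each replicate number. Nrip1 is the member whose groups overlap, Esrra is the member with lower TET2KO values, and TET2KO replicate 2 is the lowest TET2KO library for each gene that rose.

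Ppara encodes the receptor that drives fatty acid oxidation in heart muscle and is the target of fibrate drugs. It stood at 5.14, 6.05 and 6.16 CPM in WT, against 22.6, 11.6 and 24.2 CPM in TET2KO. The groups did not overlap, and even the lowest TET2KO library stood well above the WT libraries. The rise was 3.36-fold in the means (log2 fold change 1.75 ± 0.30, adjusted p = 0.0065), and 1.22 ± 0.22 with the trend removed, past the test. It passed in all 23 alternative settings, with log2 fold changes between 1.04 and 2.27.

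Ppard encodes the most widely expressed PPAR, which acts on overlapping fatty acid and glucose use genes. It had only 24, 30 and 14 reads in WT against 937, 180 and 519 in TET2KO. In CPM this was 1.15, 1.23 and 0.78 against 25.3, 6.004 and 16.5. It had the largest rise of the members, 15.1-fold in the means (3.90 ± 0.55, adjusted p = 0.0065), and still the largest with the trend removed (2.29 ± 0.29). TET2KO replicate 2 stood at less than the other TET2KO libraries, and the spread of the group (15.9 ± 9.65 CPM, SD, n = 3) was of the order of its mean. It passed in all 23 alternative settings.

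Pparg encodes the receptor that drives fat cell formation and is also made by endothelial cells and macrophages. Its values were 6.77, 6.50 and 8.74 CPM in WT, against 8.74, 9.24 and 12.2 CPM in TET2KO, so that the highest WT and the lowest TET2KO library nearly touched. The difference did not pass (0.46 ± 0.23, adjusted p = 0.11, 95% interval -0.069 to 0.98). The call depended on the setting. It passed with the trend removed (0.80 ± 0.19), with total library size (0.89), on log2(TPM + 1) values (0.92) and without TET2KO replicate 2 (0.54), and its adjusted p ranged from 0.00031 to 0.31 over 23 alternatives, all of them with a positive fold change. Adipocyte markers are given beside it. Of 10, 3 were tested, with 1 higher and 0 lower (33.4% higher among all genes), and the summed level of the 10 was 3.44 to 5.91 TPM in WT and 7.83 to 24.5 TPM in TET2KO. The higher gene was Lipe (2.33 ± 0.42), a lipase that muscle also makes, which alone stood at 13.0 of the summed 16.3 TPM in TET2KO replicate 1. The highest sum, 24.5 TPM, was that of TET2KO replicate 3, and the part of Lipe in it is not given here. Adipoq and Cfd did not pass, and the defining adipocyte genes Adipoq and Plin1 reached at most 1.17 and 0.215 TPM in any library and none of the 10 was at 0 in every library. Their part in the Pparg values was not tested. In tissue RNA of this kind, fewer cells of a type and less RNA per cell cannot be told apart.

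As a share of the summed TPM of the 3 PPAR genes, Pparg made up 58.7 ± 4.04% in WT and 30.7 ± 10.7% in TET2KO (SD, n = 3). Ppard went from 5.51 ± 1.68% to 27.0 ± 10.5%, while Ppara was at 35.8 ± 2.78% and 42.3 ± 2.44%. The first PPAR by level was thus Pparg in every WT library, whereas in TET2KO it was Ppara in replicates 1 and 3 and Pparg in replicate 2, where Ppara and Pparg were at 40.6 and 42.0%. Within libraries, the log2 ratio of Ppara to Ppard reads was 2.13, 2.28 and 2.93 in WT and -0.16, 0.95 and 0.55 in TET2KO. The difference of -2.004 had p = 0.10 in an exact two-sided permutation test, the smallest that 3 against 3 libraries can give (0.125 adjusted over 5 ratios), and it was -1.01 with the trend removed.

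Rxra and Rxrb encode the partner receptors that PPAR proteins need to bind DNA. Rxra stood at 5.57, 4.78 and 4.37 CPM in WT, against 49.9, 15.1 and 34.3 CPM in TET2KO. The groups were far apart, with TET2KO replicate 2 again the closest to WT. The rise was 6.75-fold in the means (2.75 ± 0.42, adjusted p = 0.0065) and fell to 0.88 ± 0.14 with the trend removed, still past the test, as in all 23 alternatives. The transcript of Rxra is 4905 nt long, and the trend alone accounted for a log2 difference of 1.72 at its length and GC content.

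Rxrb behaved differently. It stood at 30.3, 34.0 and 35.4 CPM in WT, against 37.4, 35.5 and 35.7 CPM in TET2KO, with the groups separated by less than the spread of the WT libraries. The difference did not pass (0.12 ± 0.14, adjusted p = 0.47, 95% interval -0.21 to 0.45). Its sign depended on the scaling: it was higher and past the test with total library size (0.55) and on log2(TPM + 1) values (0.72), and lower and past the test with the trend removed (-0.99 ± 0.20). No direction can be given for Rxrb from these libraries, with adjusted p from 1.5e-07 to 0.83 over 23 alternatives. Rxrg, the muscle RXR and the remaining gene of this family, fell from 118 ± 14.2 to 74.2 ± 17.1 CPM (-0.67 ± 0.21, adjusted p = 0.026, trend-removed -0.69 ± 0.18), but its mean TPM was 80.2 in WT and 78.0 in TET2KO, with groups that overlapped. It was the most abundant RXR in every library. Rxrg made up 83.7 ± 1.85% of the summed RXR TPM in WT and 66.6 ± 9.76% in TET2KO, and Rxra 1.48 ± 0.258% and 13.0 ± 7.58%. The log2 ratio of Ppara to Rxra reads was -0.12, 0.34 and 0.49 in WT and -1.14, -0.38 and -0.50 in TET2KO (difference -0.92, exact permutation p = 0.10, adjusted 0.125). It turned to 0.31 with the trend removed, where the groups overlapped (exact permutation p = 0.40).

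**Figure D2:**
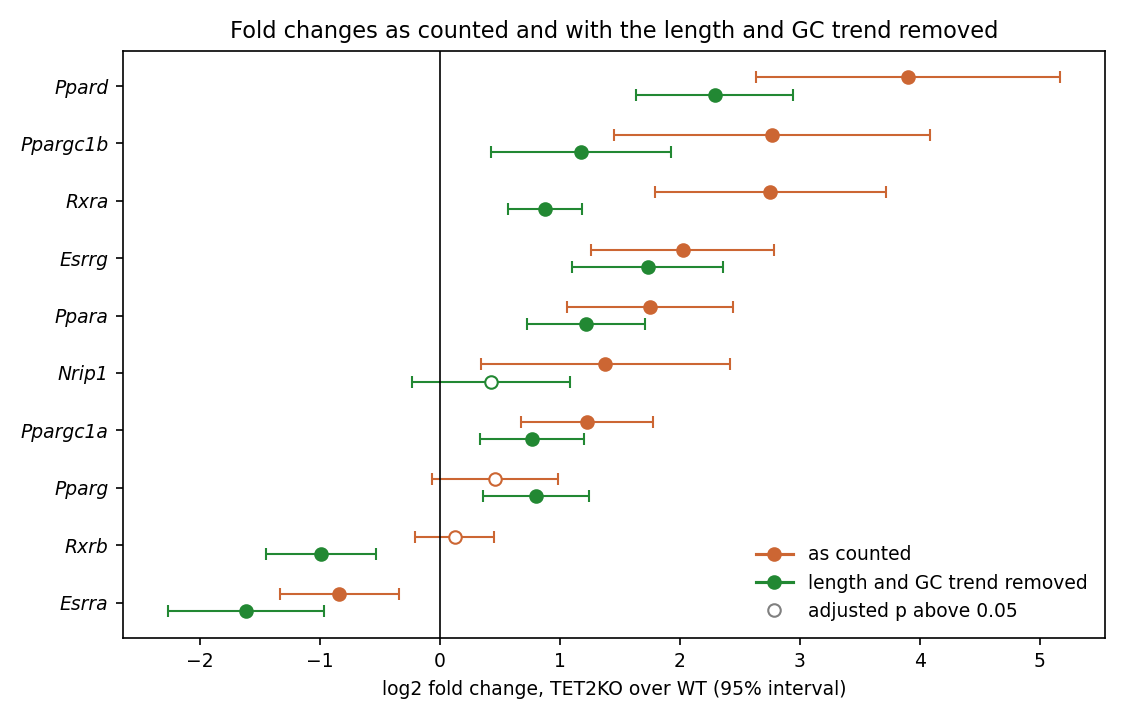
Log2 fold changes of TET2KO over WT (horizontal axis, with 95% intervals) for the 10 members as counted and with the length and GC trend removed. Open symbols mark values with adjusted p above 0.05: Pparg (0.46) and Rxrb (0.12) as counted, and Nrip1 (0.42) with the trend removed. The Rxrb values lie on opposite sides of 0, at 0.12 and -0.99.

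Esrra encodes ERR alpha, a partner of PGC-1 alpha on respiratory chain genes. It stood at 336, 278 and 328 CPM in WT, against 143, 219 and 164 CPM in TET2KO. All TET2KO libraries lay below all WT libraries, with replicate 2 of each group nearest to the other group. The fall was to 0.558 of the WT mean (-0.84 ± 0.21, adjusted p = 0.012), and -1.62 ± 0.29 with the trend removed. It was the member for which removal of the trend widened a passing difference. The fall rested on the scaling, although the sign was negative in all 23 alternatives. In TPM the libraries stood at 206, 188 and 188 against 152, 193 and 157, so that the groups overlapped, and the values on log2(TPM + 1) (-0.22) and with total library size (-0.42) did not pass. It also failed narrowly when 1 library was left out, be it replicate 1 of WT (-0.80), replicate 3 of WT (-0.82) or replicate 3 of TET2KO (-0.76), with adjusted p from 2.5e-08 to 0.19 over the alternatives. Of the merged exons of Esrra 73 nt overlap Trmt112 on the opposite strand, or 1.66% of them, and for the strand setting of the counting no statement was found in the labels.

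Esrrg encodes ERR gamma, which shares target sites with ERR alpha and maintains oxidative metabolism in heart muscle. It moved the opposite way, from 7.39, 6.54 and 6.89 CPM in WT to 40.3, 15.9 and 28.4 CPM in TET2KO. The groups did not overlap. The rise was 4.06-fold in the means (2.02 ± 0.33, adjusted p = 0.0065) and changed little with the trend removed (1.73 ± 0.28). It passed in all 23 alternatives. Esrrb, the remaining ERR gene, had 8.54 ± 0.167 CPM in WT and 20.2 ± 8.94 CPM in TET2KO. It rose as counted (1.25 ± 0.33, adjusted p = 0.014) and did not pass with the trend removed (-0.16 ± 0.14). Esrra remained the dominant ERR transcript in all 6 libraries. It held 98.0 ± 0.177% of the summed ERR TPM in WT and 89.1 ± 5.93% in TET2KO, where Esrrg held 0.888 ± 0.0503% and 6.25 ± 3.40%. The log2 ratio of Esrra to Esrrg reads was 5.50, 5.40 and 5.57 in WT and 1.82, 3.78 and 2.53 in TET2KO. Its difference of -2.78 was the largest of the 5 ratios compared (exact permutation p = 0.10, adjusted 0.125), and it was -3.35 with the trend removed, so that both values had the same sign.

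**Figure D3:**
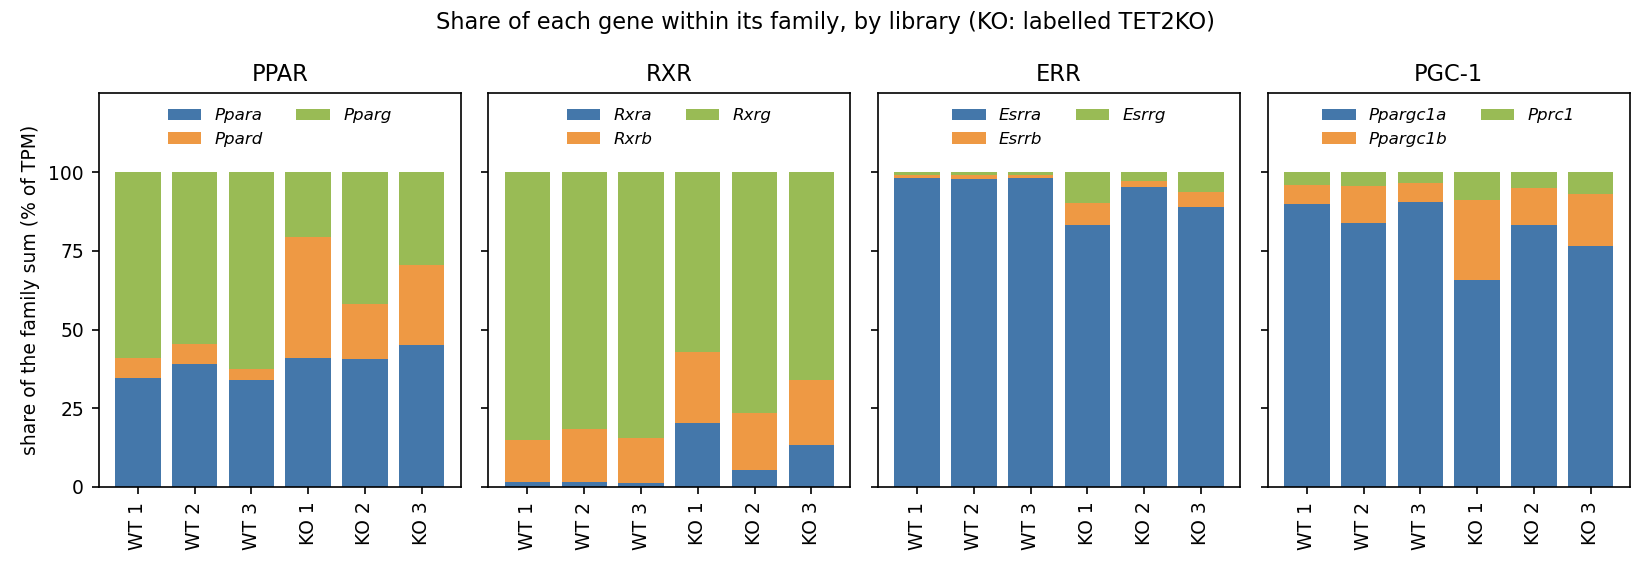
Share of each gene in the summed TPM of its family (vertical axis, percent) in each of the 6 libraries, for the PPAR, RXR, ERR and PGC-1 families. Ppard, Rxra, Esrrg and Ppargc1b take larger mean shares in TET2KO than in WT, while Rxrg and Esrra remain the first of their families in every library.

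Ppargc1a encodes PGC-1 alpha, the coactivator induced by cold, exercise and fasting that raises mitochondrial gene expression. It stood at 26.1, 23.8 and 27.4 CPM in WT, against 67.7, 40.2 and 72.5 CPM in TET2KO. The groups did not overlap, and TET2KO replicate 2 lay between the other TET2KO libraries and WT. The rise was 2.34-fold in the means (1.22 ± 0.24, adjusted p = 0.0065) and 0.77 ± 0.19 with the trend removed, past the test. The trend-removed value no longer passed when WT replicate 1 (0.74), WT replicate 2 (0.67) or TET2KO replicate 3 (0.61) was left out. The counts are per gene, so the long and the short protein forms of PGC-1 alpha are not separated.

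Ppargc1b encodes PGC-1 beta, a relative with overlapping targets. It had 22, 49 and 20 reads in WT and 586, 103 and 299 in TET2KO. This corresponds to 1.06, 2.00 and 1.12 CPM against 15.8, 3.44 and 9.50 CPM, with no overlap but with few reads behind the WT values. The rise was 6.88-fold in the means (2.77 ± 0.57, adjusted p = 0.0067), and 1.18 ± 0.33 with the trend removed. That last value passed, but not without WT replicate 1 (1.00), WT replicate 3 (1.06), TET2KO replicate 1 (0.91) or TET2KO replicate 3 (1.19). Pprc1, the more distant member of this family, rose by 2.36 ± 0.48 on the log2 scale (adjusted p = 0.0066) and did not pass once the trend was removed (0.52 ± 0.21). Ppargc1a made up 88.1 ± 3.55% of the summed PGC-1 TPM in WT and 75.2 ± 8.86% in TET2KO, and Ppargc1b 7.94 ± 3.25% and 17.9 ± 6.90%. The log2 ratio of Ppargc1a to Ppargc1b reads was 4.59, 3.56 and 4.58 in WT and 2.10, 3.54 and 2.93 in TET2KO, where replicate 2 of each group stood almost level. The difference was -1.39 (exact permutation p = 0.10, adjusted 0.125). With the trend removed it was -0.36, and the groups overlapped (exact permutation p = 0.40).

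Nrip1 encodes RIP140, a corepressor of oxidative genes in muscle and fat. It stood at 4.56, 4.70 and 3.42 CPM in WT, against 15.7, 4.34 and 13.0 CPM in TET2KO. TET2KO replicate 2 lay inside the WT range, so the groups overlapped. The difference passed (1.38 ± 0.45, adjusted p = 0.029), but it did not pass without any of WT replicate 1 (1.42), WT replicate 2 (1.45), WT replicate 3 (1.24), TET2KO replicate 1 (1.07) or TET2KO replicate 3 (1.29). It did not pass with limma-voom (1.21) or with the trend removed (0.42 ± 0.29), and passed more clearly without TET2KO replicate 2 (1.77). Its adjusted p ranged from 7.6e-07 to 0.55 over 23 alternatives. The balance of Ppargc1a and Nrip1 transcripts did not separate the groups, while that of Ppargc1b and Nrip1 was not among the ratios compared. The log2 ratio of Ppargc1a to Nrip1 reads was 2.51, 2.33 and 2.99 in WT and 2.11, 3.21 and 2.48 in TET2KO, with a difference of -0.013 (exact permutation p = 0.90).

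**Figure D4:**
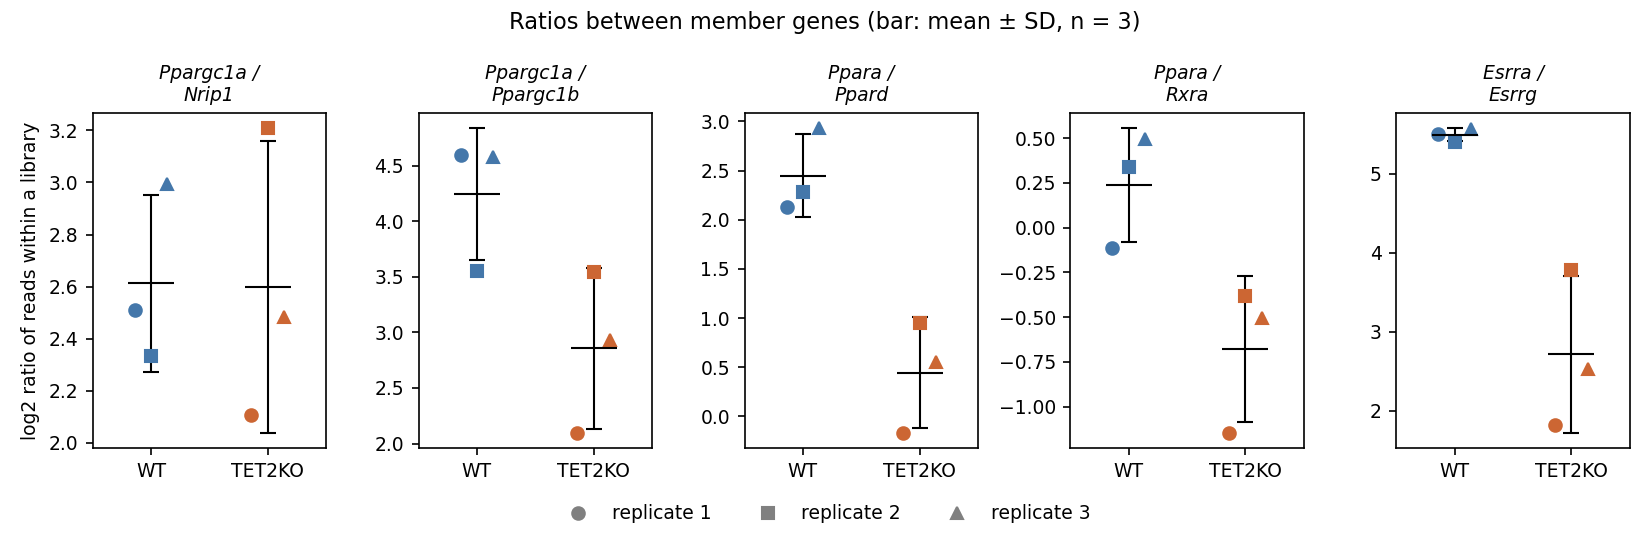
Log2 ratios of reads between pairs of members within each library (vertical axes, 1 panel per ratio, not from 0), with the mean and SD (n = 3) of each group as bars and a symbol for each replicate number. As counted, the groups are separate for 4 ratios and overlap for Ppargc1a to Nrip1, where the means are 2.61 in WT and 2.60 in TET2KO. With the trend removed (not drawn) they also overlap for Ppargc1a to Ppargc1b and for Ppara to Rxra.

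By level per length, the order in WT was Esrra (194 ± 10.1 TPM), Rxrb (14.1 ± 1.54), Ppargc1a (6.13 ± 0.0760), Pparg (3.88 ± 0.385), Ppara (2.38 ± 0.317), Esrrg (1.76 ± 0.125) and Rxra (1.42 ± 0.222). Each of these neighbours was separate in range from the next. Nrip1, Ppargc1b and Ppard followed at 0.586, 0.561 and 0.363 TPM, with overlapping ranges. In TET2KO Esrra (167 ± 22.3 TPM) was again first and separate, and Rxrb again second (24.0 ± 3.01). From Rxrb on, every neighbour overlapped with the next, down to Nrip1 at 2.43 ± 1.46 TPM. The 9 members below Esrra spanned 0.363 to 14.1 TPM in WT and 2.43 to 24.0 TPM in TET2KO. Over all 10 members the summed level was 219 to 235 TPM in WT and 259 to 302 TPM in TET2KO.

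The rises were largest among members of middle length. Esrra, Pparg and Rxrb, with longest transcripts of 2242, 2125 and 2627 nt, had the lowest fold changes. In their class of 2000 to 3000 nt the median of all genes was -0.10, with 24.0% higher and 30.3% lower. Ppara, Ppard and Ppargc1b lie between 3000 and 4000 nt, where the median of all genes was 0.32 and 38.6% were higher. Rxra and Esrrg lie between 4000 and 6000 nt (median 0.76, 54.0% higher), and Ppargc1a and Nrip1 at 6464 and 7868 nt in the class with a median of 1.34 and 71.3% higher. The fold changes of Ppard, Ppargc1b, Rxra, Esrrg, Ppara, Pparg and Rxrb thus stood above the median of their own length class by more than their SE and that of Esrra stood below it by more than its SE, whereas those of Ppargc1a (1.22 ± 0.24) and Nrip1 (1.38 ± 0.45) stood within 1 SE of it. These classes leave out GC, the other axis of the trend (Spearman's rho of fold change with GC 0.26 over all genes). Rxrb and Esrra have 61.4% and 61.8% GC. At their length and GC the trend alone accounted for log2 differences of 1.16 and 0.85. Rxrb thus stood above its class median but at -0.99 ± 0.20 with the trend removed. The comparison with class medians is a description, since the genes of a class are not replicates. The part of the length trend in the members' values was not tested beyond its removal.

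**Figure D5:**
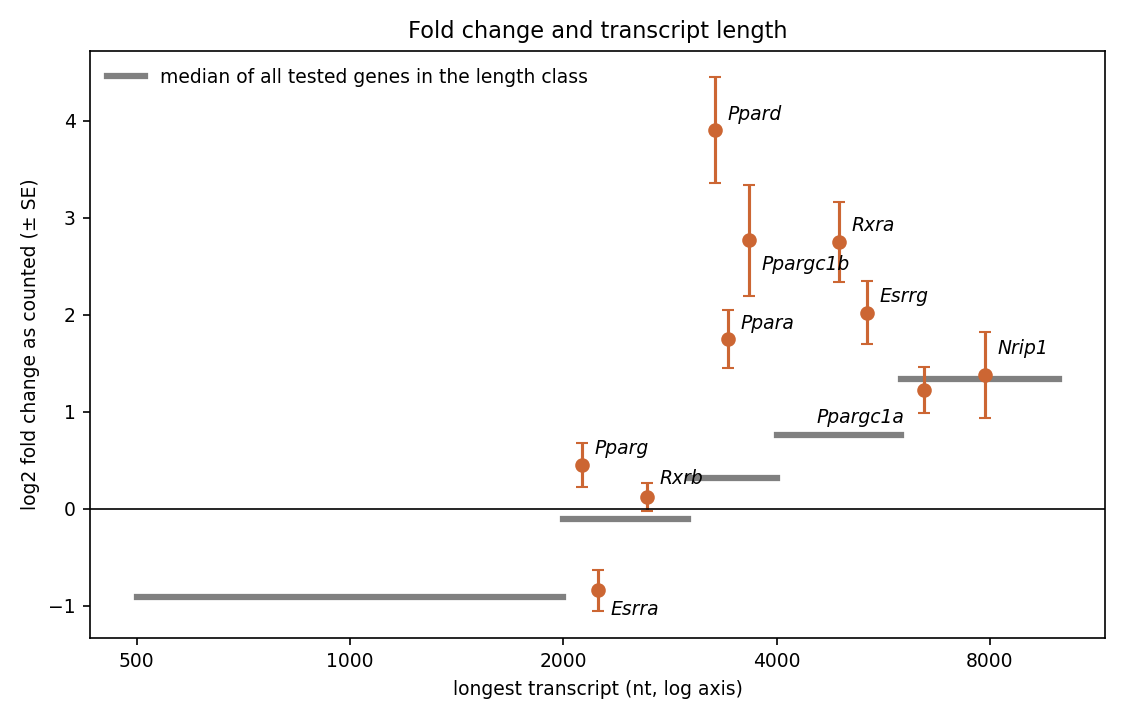
Log2 fold change as counted (vertical axis, ± SE) against the longest transcript of each member (horizontal axis, nt, log scale), with grey lines for the median of all tested genes in each length class. Ppard at 3.90 lies farthest above its line (0.32), while Ppargc1a (1.22) and Nrip1 (1.38) lie within 1 SE of the line of the longest class (1.34).

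The genes on which the PPAR receptors act were taken from a list of 32 known targets, of which 31 were tested. They did not move as a block: 9 passed as higher, 7 passed as lower and 15 did not pass, with a median log2 fold change of 0.078. Among all genes 33.4% were higher and 29.4% lower. Higher genes included Cpt1a and Cpt1b, which encode carnitine palmitoyltransferases that admit fatty acids to mitochondria (1.86 ± 0.34 and 0.97 ± 0.21). Acsl1, which activates fatty acids, and Vldlr, a lipoprotein receptor, rose by 1.15 ± 0.23 and 1.22 ± 0.22 on the log2 scale. Lower genes included Fabp3, the fatty acid binding protein of heart (-1.09 ± 0.26), Slc25a20, the carnitine carrier (-1.08 ± 0.27), and Cd36, the fatty acid translocase (-0.82 ± 0.26). Decr1 and Eci1, enzymes for unsaturated fatty acids, stood at -0.83 ± 0.23 and -0.75 ± 0.23.

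Of Pdk4, Angptl4 and Acot1, classical PPAR targets with a sharp response to ligands, only Angptl4 passed as counted. Pdk4, the kinase that shuts off glucose oxidation, stood at 313 ± 96.4 CPM in WT and 553 ± 195 in TET2KO and did not pass (0.82 ± 0.33, adjusted p = 0.057). Angptl4, a lipase inhibitor, fell from 46.9 ± 15.9 to 18.2 ± 12.2 CPM (-1.36 ± 0.46, adjusted p = 0.033). TET2KO replicate 3 (32.2 CPM) nearly touched WT replicate 2 (33.2 CPM). In TPM the Angptl4 groups overlapped, and its adjusted p reached 0.20 over the alternatives. Acot1, a thioesterase, did not pass (-0.27 ± 0.33, adjusted p = 0.50). With the trend removed the list had 8 higher and 4 lower (21.8% and 24.3% among all genes), with a median of 0.11. Cpt1a, Cpt1b and Acsl1 stayed higher, Slc25a20, Decr1 and Angptl4 stayed lower, and Pdk4 passed as higher (0.96 ± 0.31). Vldlr (0.29), Cd36 (-0.094), Fabp3 (0.016) and Eci1 (0.11) did not pass. With the trend fitted on merged exon length instead, the list had 8 higher and 8 lower, with a median of 0.025. In that fit 7226 of 14341 genes passed, 47.7% of them higher. Over the 23 alternatives the Acsl1 value reached down to 0.025 and its adjusted p reached 0.90. In TPM the Decr1, Cd36 and Eci1 groups overlapped. On log2(TPM + 1) values the split was 18 higher and 1 lower (48.5% and 13.6% among all genes). The number past the test went from 16 to 9 when WT replicate 1 was left out and to 10 when TET2KO replicate 3 was. Over all genes it went from 9037 of 14370 to 6396 of 14912 and to 6133 of 14686.

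Of 30 targets of ERR receptors and PGC-1 coactivators, 8 passed as higher, 11 passed as lower and 11 did not pass (33.4% higher and 29.4% lower among all genes), with a median of -0.072. Ogdh and Sdha, enzymes of the tricarboxylic acid cycle, rose by 2.15 ± 0.34 and 1.40 ± 0.27, Mfn2, of mitochondrial fusion, by 1.85 ± 0.30 and Polrmt, the mitochondrial RNA polymerase, by 2.13 ± 0.35. Perm1, a muscle regulator induced by PGC-1 and ERR, rose from 94.6 ± 4.56 to 221 ± 61.1 CPM (1.22 ± 0.24, adjusted p = 0.0065). Cycs, encoding cytochrome c, fell from 2090 ± 177 to 835 ± 301 CPM (-1.32 ± 0.29), and Sdhb, the partner of Sdha in complex II, by 1.13 ± 0.26. The mitochondrial transcription and ribosome factors Tfb1m and Tfam stood at -1.45 ± 0.30 and -0.72 ± 0.19, and the deacetylase gene Sirt3 at -0.94 ± 0.20. Nrf1, a transcription factor through which PGC-1 acts on nuclear mitochondrial genes, did not pass (0.26 ± 0.18, adjusted p = 0.23).

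With the trend removed this list had 12 higher and 7 lower (21.8% and 24.3% among all genes), with a median of 0.11. Ogdh (1.13), Sdha (1.44) and Mfn2 (0.67) stayed higher and Cycs (-0.72), Sdhb (-0.34), Tfb1m (-0.50), Tfam (-0.85) and Sirt3 (-0.49) lower. Perm1 (0.25) and Polrmt (0.25) no longer passed. In TPM the Tfam groups overlapped, and the adjusted p of Tfam reached 0.56 over the alternatives. With the trend fitted on merged exon length instead, the list had 9 higher and 11 lower, with a median of -0.084. In that fit 7226 of 14341 genes passed, 47.7% of them higher. On log2(TPM + 1) values 18 were higher and 3 lower (48.5% and 13.6% among all genes). The number past the test went from 19 to 12 when WT replicate 3 was left out and to 11 when TET2KO replicate 3 was. Over all genes it went from 9037 of 14370 to 6141 of 14922 and to 6133 of 14686. Sdha and Sdhb thus moved in opposite directions with and without the trend.

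Of 28 other co-regulators and upstream genes, 21 passed as higher, 3 passed as lower and 4 did not pass (33.4% higher and 29.4% lower among all genes), with a median of 1.29. Their transcripts are long, with a median of 5469.5 nt against 2996 nt for all genes tested. Lpin1, a coactivator of PGC-1 alpha and PPAR alpha as well as a lipid phosphatase, rose from 7.04 ± 0.485 to 75.5 ± 49.2 CPM (3.42 ± 0.53). Prkaa2, the AMP-activated kinase subunit of muscle, rose by 1.92 ± 0.23, the coactivator gene Ncoa2 by 2.94 ± 0.50 and Mef2c, a muscle transcription factor that acts on Ppargc1a, by 1.42 ± 0.24. The corepressor gene Ncor1 (1.34 ± 0.34) and the Mediator gene Med1 (0.67 ± 0.22) also passed as counted. The lower genes were Rxrg, Prmt1, an arginine methyltransferase (-0.68 ± 0.18), and Hdac3, the deacetylase that works with Ncor1 (-0.69 ± 0.18). In TPM the groups of these lower genes overlapped. Sirt1, which deacetylates PGC-1 alpha, did not pass (0.12 ± 0.20, adjusted p = 0.63, 9.04 ± 1.37 and 9.80 ± 0.725 CPM). With the trend removed 11 were higher and 4 lower (21.8% and 24.3% among all genes) with a median of 0.34. Lpin1 (2.11), Prkaa2 (1.37), Ncoa2 (1.37) and Mef2c (1.13) stayed higher, Ncor1 (-0.28) and Hdac3 (-0.31) did not pass, and Med1 passed as lower (-0.60 ± 0.14). On log2(TPM + 1) values 25 were higher and 0 lower (48.5% and 13.6% among all genes). The count past the test, 24 as counted, was 13 without WT replicate 3. Over all genes 9037 of 14370 passed as counted and 6141 of 14922 without that library.

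The genes of most similar pattern over the 6 libraries were taken as those with the smallest root mean square difference in centred log2 CPM. For Ppargc1a these were Perm1 (0.052), Magi1 (0.066) and Ogdhl (0.068), against a median of 0.69 over all genes. Their fold changes were 1.22, 1.22 and 1.21, as for Ppargc1a, but their trend-removed values were 0.25, 0.49 and 0.071 against 0.77. For Ppara they were Cdk16 (0.068), Slc8a1 (0.069) and Tomm34 (0.088), against a median of 0.86, and for Pparg they were Pard6b (0.044), Fam131b (0.088) and Srd5a1 (0.094), against a median of 0.59. All genes were measured in the same 6 libraries, so this is a description of 6 points.

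Markers of the cell types that could carry these transcripts were counted in the same way, against 33.4% higher and 29.4% lower among all genes. Heart muscle was present in every library, with 10 of 10 cardiomyocyte markers tested, 5 higher and 4 lower, and a summed level of 59760 to 65858 TPM in WT and 38541 to 47692 in TET2KO. Endothelial markers had 7 higher and 3 lower of 10, at 228 to 276 and 340 to 578 TPM, and macrophage markers 2 higher and 2 lower of 8, at 194 to 203 and 229 to 251 TPM. Fibroblast markers had 3 higher and 4 lower of 8, at 870 to 960 and 856 to 928 TPM. Atrial markers had 0 higher and 3 lower of 3, at 1835 to 3070 and 1713 to 2790 TPM. Red cell genes had 0 higher and 5 lower of 5, at 2928 to 14103 and 566 to 2123 TPM. Of 4 brown fat markers only Cidea, which heart also makes, was tested. It did not pass as counted (-0.21) but passed as higher with the trend removed (0.60), and its mean TPM was 50.8 in WT and 68.0 in TET2KO, with no overlap. Ucp1, Elovl3 and Zic1 were under 0.5 TPM in every library. With the trend removed (21.8% higher and 24.3% lower among all genes) the counts of higher and lower markers were 4 and 2 for cardiomyocytes, 6 and 1 for endothelial cells, 1 and 2 for macrophages, 1 and 1 for fibroblasts, 0 and 1 for atrial cells and 0 and 5 for red cells. The summed levels of fibroblast and atrial markers overlapped between the groups. The part of these differences in the values of the members was not tested.

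The authors' deposited table gave the same calls for the 10 members at an adjusted p of 0.05, with 65.0% of its 14370 genes past it (33.6% higher and 31.4% lower). Its log2 fold changes were 3.85 for Ppard, 2.71 for Ppargc1b, 2.69 for Rxra, 1.96 for Esrrg, 1.69 for Ppara, 1.32 for Nrip1, 1.17 for Ppargc1a and -0.89 for Esrra, and 0.40 and 0.069 for Pparg and Rxrb. The authors' deposited list of 6254 significant genes, which holds no absolute log2 fold change under 1.00, includes 7 of the members and leaves out Esrra, Pparg and Rxrb.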

How the data were processed

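Poly(A)-selected RNA of 6 mid-ventricular heart samples (3 WT, 3 TET2KO) was sequenced as read pairs of 150 nt, per the labels' protocols. The authors deposited raw read counts per gene, TPM values, and a table of their own comparison that holds log2 fold changes and p-values, raw and adjusted, per the file headers. That table also holds normalised counts per library, a signal that the authors deposited and that equals the counts divided by 1 factor per library. The submitters' processing notes list the builds GRCm38 and mm10 and the tools Trimmomatic 0.36, STAR 2.5.2b, DESeq2, featureCounts and Subread 1.5.2. Annotation release, strand setting and the lengths behind the TPM were not given in the sources used here. Sample columns without a match numbered 0.

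Counts of the 49315 genes were tested with edgeR 4.0.16 (R 4.3.3), using TMM, filterByExpr, a robust quasi-likelihood fit with group as the term, and Benjamini-Hochberg adjustment over all 14370 genes. Each SE was derived from the log2 fold change and its F statistic. Positions, longest transcript (protein-coding where there is one) and GC come from GENCODE M21 (GRCm38), matched by gene ID for 48970 genes. The trend was a smooth surface on log2 length and GC (mgcv 1.9.3, basis size 6 per axis) fitted for each library to the deviations of log2 CPM (prior count 2) and entered as offsets. It removes real differences that follow length along with technical ones. Ratios used reads + 0.5 and exact permutation. Alternatives were other scalings and tools (DESeq2 1.42.0, limma 3.58.1), TPM with pseudocounts of 1 and 0.1 and a filter at a mean of 0.5, no filter, the replicate block, the trend, and leaving out each library, 23 in all; the trend on merged exon length was added after seeing the data. The log2(TPM + pseudocount) scale understates changes of low genes.

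Tested on simulated data with no trend (14198 genes), recovery was 15% for 100 genes given a log2 change of 1 and 81% for 100 given 2, and 5 unchanged genes were called. With the trend added, 6486 unchanged genes were called, and 17 after its removal, among 14202 and 14174 genes. Recovery was then 62% and 90% as counted, and 62% and 96% after removal of the trend, for changes of 1 and 2. The simulation without a trend drew counts with the replicate spread of the fit as counted. Those with a trend used the replicate spread of the trend-removed fit. Recovery with and without a trend is therefore not comparable. Counts of replicates differed beyond sampling noise in each pair (chi-square per degree of freedom 11.9 to 260). Members, lists and tests were chosen with earlier results of these data known. Named genes are the members, from each of the 3 pathway lists the 4 with the smallest p in each direction past the test, and 17 textbook genes chosen by name. The values of 1 gene that this rule names are not reported here. The p-values measure the spread between these samples.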

Additional observations from a re-analysis of the deposited data

How the results depend on the processing

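Ppara, Ppard, Rxra and Esrrg kept their direction and passed in all 23 alternatives, among which the trend on merged exon length was chosen after seeing the data. Depth limits Ppard and Ppargc1b, with at most 49 reads per WT library. The number of members called lower, 1 as counted, was 0 with total library size and on both TPM scales, and 2 with the trend removed, with merged exon length, and with the replicate block plus the trend. Co-regulators past the test numbered 15 with the trend removed and 14 with the block plus the trend, which left 5707 genes in all. Between samples of the same replicate number, correlations of their deviations from the group mean were 0.039, -0.23 and -0.013 for numbers 1, 2 and 3. Deviations from a mean of 3 libraries are tied to each other, so these values cannot exclude a pairing. Under the replicate block 7618 genes passed, against 9037, with 6 members higher and 1 lower, and 13, 16 and 20 of the PPAR targets, ERR and PGC-1 targets and co-regulators. Leaving out 1 library gave 6133 to 11178 genes in all as counted and 4036 to 8666 with the trend removed. The members higher ranged from 6 to 8 and from 4 to 8, the members lower from 0 to 1 and at 2, PPAR targets from 9 to 22 and 6 to 17, ERR and PGC-1 targets from 11 to 22 and 9 to 20, and co-regulators from 13 to 25 and 9 to 21.

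The log2 ratio of Ppargc1a to Nrip1 turned to 0.12 on TPM and 0.43 with the trend removed, and ranged from -0.32 to 0.23 when 1 library was left out. The ratio of Ppara to Rxra turned to 0.31 with the trend removed. Signs of single genes turned as follows with the trend removed, with the replicate block plus the trend, and over the trend-removed fits that leave out 1 library; the cause was not tested. Rxrb stood at -0.99, -1.03 and -1.30 to -0.83, and at -1.09 with merged exon length. Med1 stood at -0.60, -0.60 and -0.69 to -0.53, and at -0.072 with merged exon length. Ncor1 stood at -0.28, -0.28 and -0.33 to -0.22. Esrrb stood at -0.16, -0.17 and -0.23 to -0.078. Fabp3 stood at 0.016, 0.014 and -0.064 to 0.044, and at 0.028 with merged exon length. Eci1 stood at 0.11, 0.11 and 0.022 to 0.16. With merged exon length Cd36 stood at 0.012 and Nrf1 at -0.95. As counted, leaving out 1 library took Rxrb to at most 0.17, Esrrb to at most 1.57, Ncor1 to at most 1.68 and Med1 to at most 0.87, and Fabp3 and Eci1 down to -1.26 and -0.88.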
